A study of Mus musculus with 6 samples.

Results

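The CC chemokines are small secreted proteins with adjacent cysteines near the amino terminus that direct leukocytes through G protein-coupled CC receptors. They were examined in endometriosis-like lesions of mice given niclosamide or vehicle. Members were counted gene symbols made of Ccl and a number (with or without a letter) or of Ccr and a number, together with *Ccrl2*. Described here are 34 of the 41786 counted symbols, 24 of them ligands and 10 receptors counting *Ccrl2*. Of the 34, 30 had reads and all 30 passed the filter on low counts. The other 4, *Ccl21b*, *Ccl21c*, *Ccl26* and *Ccl27b*, had a count of 0 in each of the 6 libraries.

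The niclosamide group comprised 3 libraries, each from 1 female C57BL/6 recipient that received the drug at 200 mg/kg of body weight daily for 3 weeks. The vehicle group comprised 3 libraries from recipients given vehicle over the same 3 weeks. In both groups the lesion was uterus of a B6-GFP positive donor aged 6 weeks, sutured inside the peritoneum of wild-type recipients aged 8 weeks, with treatment starting 3 days later and collection in diestrus. Niclosamide libraries 1 to 3 and vehicle libraries 2 and 3 were from single mice, whereas vehicle 1 was RNA pooled from 4 mice, so that library is already an average over animals. The promoter of the GFP transgene is not given in the sources used here, and the graft was whole uterus, so myometrium is part of the starting tissue. Recipients were not described as lacking any immune cells, and leukocytes in these lesions can be of donor or recipient origin.

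Inflammatory CC chemokines such as CCL2 and CCL5 are induced in tissue by cytokines and microbial products and draw monocytes, T cells and NK cells from blood. Homeostatic ones such as CCL19 and CCL21 are made without inflammation and guide dendritic cells and lymphocytes to lymphatic vessels and lymphoid tissue. A smaller set, including CCL20, CCL25, CCL27 and CCL28, is made by epithelia. Most CC receptors bind several ligands and most inflammatory ligands bind several receptors. In endometriosis, chemokines of peritoneal fluid and lesions are known for drawing macrophages to the ectopic tissue. Niclosamide is an oral anthelmintic that also acts on several signalling pathways, STAT3 and NF-kB among them, and many inflammatory chemokine genes are NF-kB targets.

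The libraries held 27797121 to 34797000 counted reads. Levels within a gene are in CPM, counts scaled to a common library total. A count of 0 allows up to 3 reads, or 0.0862 to 0.108 CPM, for counting error only. Markers of uterine epithelium summed to 303 to 1820 CPM with niclosamide and 652 to 1581 with vehicle. Those of endometrial stroma summed to 339 to 1193 and 682 to 1083 CPM. The epithelial list includes *Krt8*, *Epcam* and *Cdh1*, which are not specific to uterus. No reference tissue was compared, so the identity of the tissue was not tested. *Foxa2* was the 1 of 7 epithelial markers whose groups did not overlap, compared with 12.3% of all genes tested. It had 0.4758 to 1.12 CPM with niclosamide and 1.697 to 3.683 CPM with vehicle (edgeR adjusted p = 0.623). Sums of cell type markers differed along the groups in some lists. T and NK cell markers summed to 329 to 473 CPM with niclosamide and 210 to 236 with vehicle, without overlap. Sums of neutrophil markers (198 to 303 and 328 to 755) and smooth muscle markers (1716 to 4124 and 4995 to 7245) lay lower with niclosamide, also without overlap. Gene by gene, the groups were apart in 6 of 8, 2 of 5 and 4 of 5 of these markers, respectively, against 12.3% of all genes tested. The lowest edgeR adjusted p among them was 0.521. Macrophage and monocyte markers overlapped (832 to 1597 and 713 to 1280 CPM). Skeletal muscle markers ran from 597 CPM in niclosamide 2 to 24687 CPM in niclosamide 1, against 3459 to 8500 with vehicle. In bulk tissue, fewer cells of a type and less RNA per cell cannot be told apart, and the part of these markers in the differences given here was not tested.

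Levels of different genes were set side by side in TPM, transcripts scaled to a common total after division of reads by exon length. *Ccl8*, listed here with the monocyte-attracting ligands and paired with CCR8, was the ligand with the highest mean, at 936 to 1065 TPM with niclosamide and 589 to 1036 TPM with vehicle. *Ccl6*, a rodent chemokine of myeloid cells, had 552 to 1118 and 396 to 1207 TPM. *Ccl5*, made by T cells, NK cells and macrophages, had 393 to 1108 and 228 to 565 TPM. *Ccl21a*, which encodes a form of the CCR7 ligand CCL21, had 288 to 323 and 244 to 492 TPM. These 4 genes together took 79.6% to 82.9% of all CC ligand TPM in the niclosamide libraries and 71.2% to 75.1% in the vehicle libraries. At the other end, *Ccl19*, *Ccl25*, *Ccl27a*, *Ccl1* and *Ccl17* each averaged under 6 TPM over the 6 libraries. *Ccl19* had 0.468 to 1.26 TPM with niclosamide and 0.309 to 1.53 TPM with vehicle. By counted reads, the homeostatic CCR7 ligand was thus nearly all *Ccl21a*, with the limit from gene copies given below.

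Among the receptors, *Ccr2*, the receptor of inflammatory monocytes, had 122 to 160 TPM with niclosamide and 96.9 to 122 TPM with vehicle. *Ccr1*, of monocytes and neutrophils, had 35.1 to 64.9 and 54.6 to 87.5 TPM, and *Ccr7*, of migrating dendritic cells and naive lymphocytes, had 12.4 to 31.3 and 20.4 to 30.2 TPM. *Ccrl2*, which presents chemerin, had 14.6 to 25.9 and 15.4 to 32.3 TPM. These 4 made up 92.5% to 95.6% of the TPM of the receptor genes described with niclosamide and 93% to 95.1% with vehicle, and *Ccr2* alone 48.2% to 68.1% and 37.3% to 51.4%. *Ccr3*, *Ccr4*, *Ccr6*, *Ccr9* and *Ccr10* each averaged under 3 TPM over the 6 libraries.

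**Figure D1:**
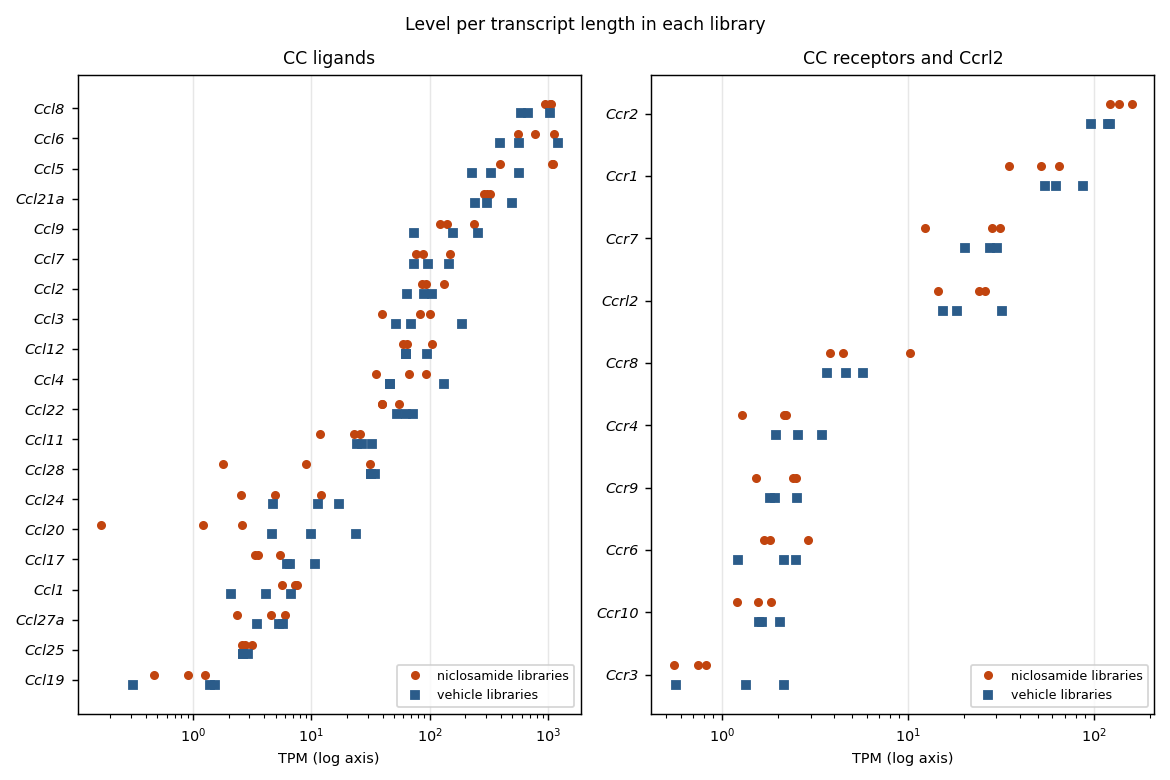
Level of the 30 detected genes in TPM on a log axis, ligands left and receptors with *Ccrl2* right, 1 point per library, niclosamide above vehicle in each row, ordered by the mean over the 6 libraries. *Ccl8*, *Ccl6*, *Ccl5* and *Ccl21a* lead the ligands and *Ccr2* and *Ccr1* the receptors, and *Ccl20* and *Ccl28* have the widest spread between niclosamide libraries.

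Niclosamide was compared with vehicle over all 17364 genes that passed the filter, with edgeR's quasi-likelihood test and Benjamini-Hochberg adjustment over all of them. None of the 30 members had an adjusted p under 0.05, where the share of all genes so called was 0%. The adjusted p of the members lay between 0.603 and 0.995. Log2 fold changes are given as niclosamide over vehicle, and 15 members were above 0 and 15 below, with a median of 0.01 against 0.02 over all genes tested. An unadjusted edgeR p under 0.05 was met by 4 of the 30 (13.3%), compared with 6.92% of all genes tested. Of these, *Ccr2* and *Ccl5* were higher with niclosamide, where 3.37% of all genes were, and *Ccl20* and *Ccl17* were lower, where 3.55% were. The groups did not overlap in CPM in 4 members (12.3% of all genes tested), 2 of them higher with niclosamide (5.9% of all genes), namely *Ccr2* and *Ccl25*, and 2 lower (6.37%), namely *Ccl20* and *Ccl17*. DESeq2 called 1 member, *Ccl20*, at an adjusted p of 0.028, in a test that called 1.01% of the genes it adjusted (0.424% higher and 0.583% lower with niclosamide). Limma-voom called 0 members, with 3 at an unadjusted p under 0.05, where 6.82% of all genes in that fit were.

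**Figure D2:**
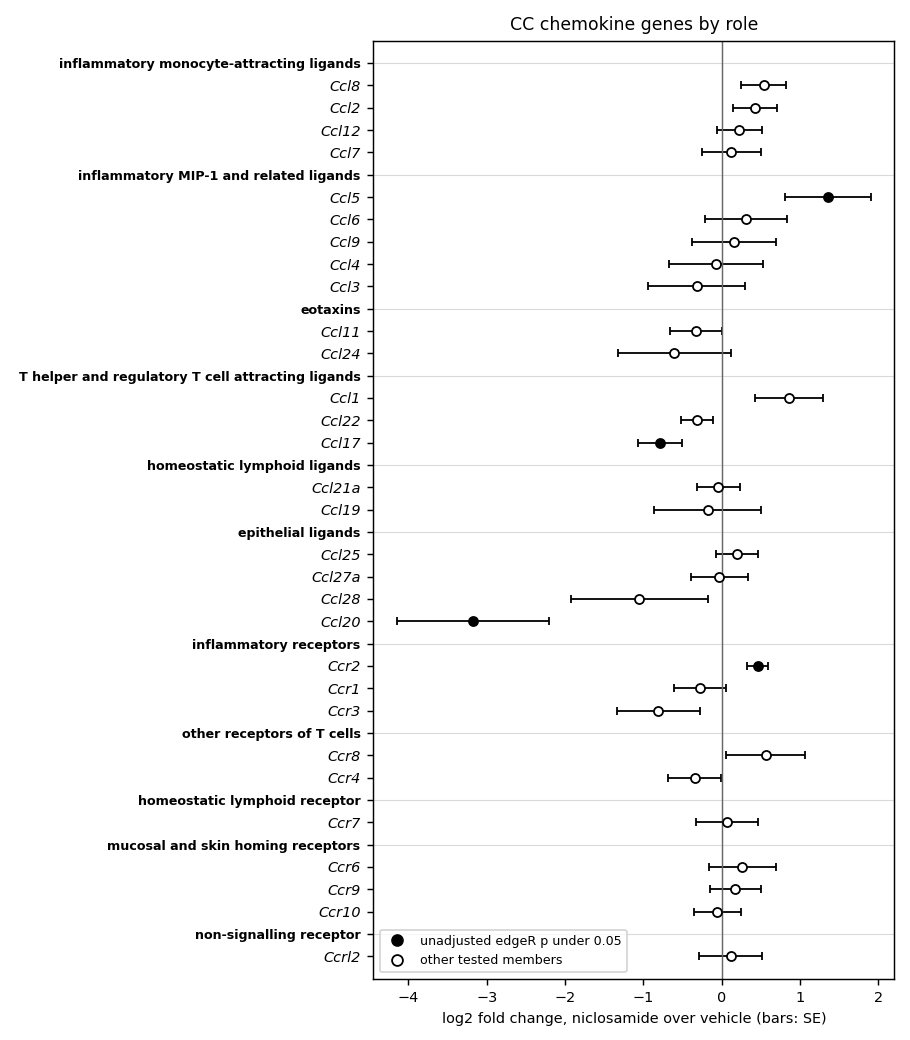
Log2 fold change of niclosamide over vehicle (x axis, bars are SE) for the 30 tested genes, grouped by role. Filled points have an unadjusted edgeR p under 0.05, which are *Ccl5* and *Ccr2* right of 0 and *Ccl17* and *Ccl20* left of it; none passed after adjustment over all genes.

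The monocyte-attracting ligands are *Ccl2*, *Ccl7* and *Ccl12*, paired here with CCR2, and *Ccl8*, paired with CCR8, through which it acts in mice. They lie in 1 cluster with *Ccl11* and *Ccl1* on chromosome 11 (82035577 to 82179884, GRCm38.p3). All 4 had a log2 fold change above 0, with a median of 0.33, where 9333 of all 17364 genes tested were above 0. An unadjusted edgeR p under 0.05 was met by 0 of the 4, compared with 6.92% of all genes tested. The sign of *Ccl7* turned without niclosamide 2 (-0.27) or vehicle 3 (-0.08), and that of *Ccl12* without niclosamide 2 (-0.12). *Ccl8* had 246, 250 and 196 CPM in niclosamide 1 to 3 and 229, 111 and 137 CPM in vehicle 1 to 3, a log2 fold change of 0.54 ± 0.28 (SE). Only the pooled library, vehicle 1, reached the niclosamide range, and without it the log2 fold change was 0.89. *Ccl2*, the main monocyte attractant, had 35.2, 48.7 and 28.4 CPM with niclosamide and 36.2, 26.6 and 20.7 CPM with vehicle (log2 fold change 0.43 ± 0.28 SE), with overlapping groups.

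*Ccl7* had 28.7, 54.1 and 29.0 CPM with niclosamide and 50.7, 28.5 and 23.5 CPM with vehicle, and *Ccl12* had 14.8, 25.7 and 14.1 CPM with niclosamide and 14.5, 18.8 and 13.5 CPM with vehicle. Their log2 fold changes were 0.12 ± 0.38 and 0.23 ± 0.28 (SE), within their errors. Niclosamide 2 was the highest of the 6 libraries for each of *Ccl2*, *Ccl7*, *Ccl8* and *Ccl12*.

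*Ccr2*, through which CCL2 draws monocytes out of bone marrow and into tissue, lies on chromosome 9 (124101918 to 124109140). It had 253, 223 and 261 CPM in niclosamide 1 to 3 and 167, 176 and 195 CPM in vehicle 1 to 3. Every niclosamide library lay above every vehicle library in CPM, and the spread within each group was small, at 246 ± 20.1 CPM with niclosamide and 179 ± 14.2 CPM with vehicle (SD, n = 3 each). The log2 fold change was 0.46 ± 0.14 (SE), with an unadjusted edgeR p of 0.0134 and an adjusted p of 0.603. On the TPM scale the groups met, at 122.2 in niclosamide 2 and 122.3 in vehicle 3. With any 1 library left out the log2 fold change stayed between 0.41 and 0.53.

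The macrophage inflammatory protein genes and their neighbours, *Ccl3*, *Ccl4*, *Ccl5*, *Ccl6* and *Ccl9*, form a neighbouring cluster on chromosome 11 (83525778 to 83664683). Their median log2 fold change was 0.15, with 3 above 0 and 2 below. *Ccl5*, at 83525778 to 83530518, had the largest of the 5. It had 265, 270 and 85.9 CPM in niclosamide 1 to 3 and 130, 64.8 and 48.5 CPM in vehicle 1 to 3. Niclosamide 1 and 2 were more than 2 times the highest vehicle library, while niclosamide 3 lay inside the vehicle range. The means were 207 ± 105 CPM with niclosamide and 81.0 ± 43.0 CPM with vehicle (SD, n = 3 each). The log2 fold change was 1.36 ± 0.55 (SE), with an unadjusted edgeR p of 0.0461 and an adjusted p of 0.715. It ran from 1.096 without niclosamide 2 to 1.87 without vehicle 1. The unadjusted p was above 0.05 with limma-voom (0.0511) and with edgeR without a filter on low counts (0.0743). With edgeR it was 0.113 to 0.128 without niclosamide 1, niclosamide 2, vehicle 2 or vehicle 3. In the other alternatives it stayed under 0.05.

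*Ccl3* and *Ccl4*, the macrophage inflammatory protein 1 alpha and beta genes, had log2 fold changes of -0.32 ± 0.62 and -0.07 ± 0.60 (SE). *Ccl3* had 30.8, 36.6 and 12.8 CPM with niclosamide and 63.4, 20.5 and 16.3 CPM with vehicle, and *Ccl4* had 27.5, 37.8 and 12.8 CPM with niclosamide and 50.9, 14.97 and 16.4 CPM with vehicle. The pooled library, vehicle 1, was the highest of the 6 in both genes, and without it the values turned to 0.54 and 0.73; *Ccl3* also turned without niclosamide 3 (0.02), as did *Ccl4* (0.26). *Ccl3* and *Ccl4* share 57 exonic bases on opposite strands, which stranded counting keeps apart.

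*Ccl6* had 750, 514 and 326 CPM with niclosamide and 749, 210 and 324 CPM with vehicle, and *Ccl9*, a CCR1 ligand of rodents, had 334, 192 and 151 CPM with niclosamide and 336, 82.0 and 190 CPM with vehicle. Their spread within groups exceeded the difference between them (log2 fold change 0.31 ± 0.53 and 0.15 ± 0.54, SE). Vehicle 1 stood at the level of niclosamide 1 in both genes. Without vehicle 1 the values were 0.99 and 0.73, without niclosamide 1 they were -0.03 and -0.25, and without vehicle 2 they were -0.02 and -0.22.

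*Ccr1*, another inflammatory receptor, binds CCL3, CCL5, CCL6 and CCL9 and lies with *Ccr9*, *Ccr3* and *Ccr2* on chromosome 9 (123767211 to 124109140). It had 68.7, 84.4 and 40.9 CPM with niclosamide and 107, 57.2 and 71.2 CPM with vehicle, with overlapping groups and a log2 fold change of -0.28 ± 0.33 (SE), which was 0.01 without vehicle 1. Among these 4 neighbours the log2 fold changes ran from -0.81 for *Ccr3* to 0.46 for *Ccr2*.

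**Figure D3:**
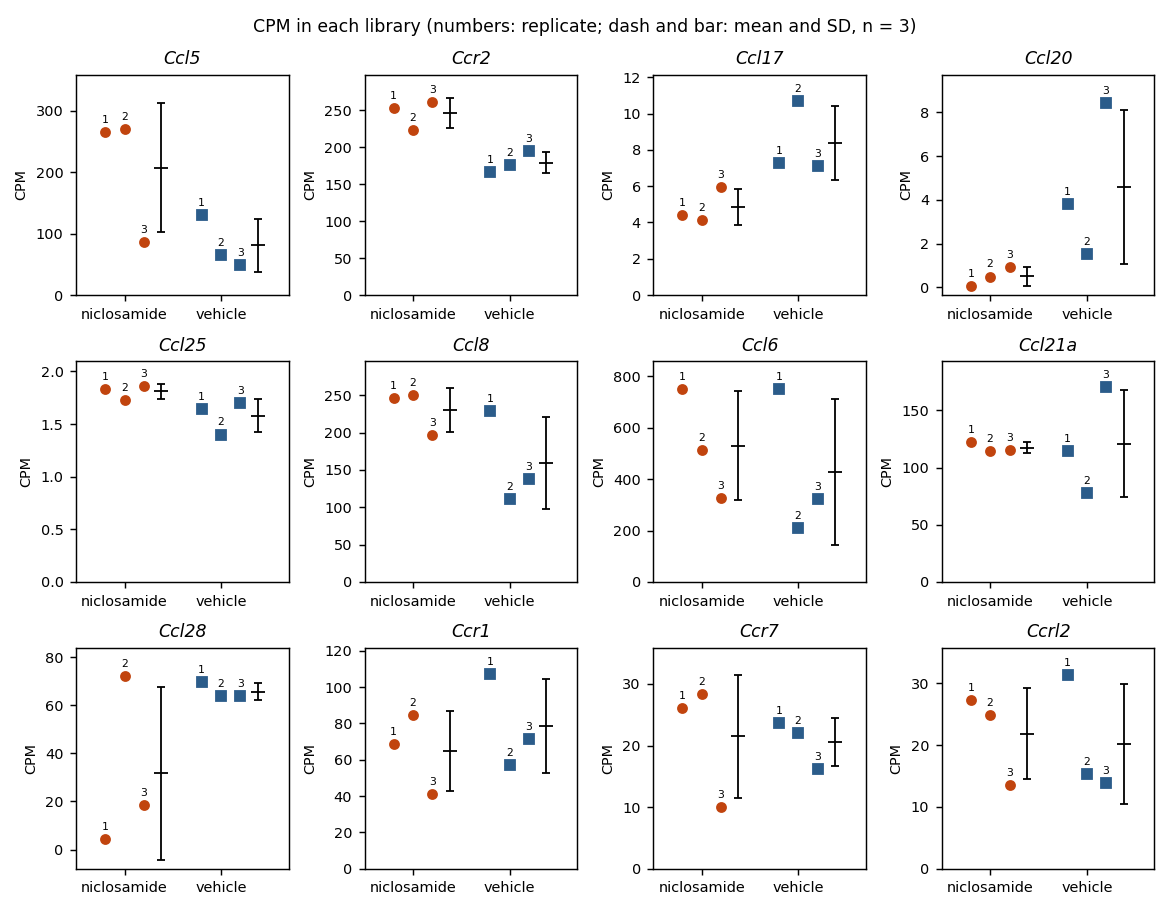
CPM of 12 genes in each library, niclosamide left and vehicle right, with the replicate number beside each point and the mean with SD (n = 3) as dash and bar. In *Ccr2* and *Ccl25* every niclosamide point is above every vehicle point, in *Ccl17* and *Ccl20* every one is below, and in *Ccl28* niclosamide 1 and 3 lie far below the other 4 libraries.

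The eotaxins recruit eosinophils through CCR3. *Ccl11* (eotaxin-1) had 12.9, 5.84 and 10.02 CPM with niclosamide and 15.1, 10.6 and 10.4 CPM with vehicle, and *Ccl24* (eotaxin-2) had 3.13, 7.60 and 1.43 CPM with niclosamide and 6.78, 2.42 and 9.33 CPM with vehicle. Their log2 fold changes were -0.33 ± 0.33 and -0.61 ± 0.72 (SE), and *Ccl24* was at -1.45 without niclosamide 2 and -0.17 without vehicle 3. *Ccr3* had 1.22, 0.896 and 1.18 CPM with niclosamide and 2.04, 0.742 and 3.02 CPM with vehicle, from 27 to 96 reads per library (log2 fold change -0.81 ± 0.53 SE; -0.33 without vehicle 3). Eosinophil markers pointed both ways: *Siglecf* averaged 3.61 ± 1.23 CPM with niclosamide and 10.3 ± 3.32 CPM with vehicle, and the granule protein gene *Prg2* averaged 12.7 ± 6.10 and 2.69 ± 1.06 CPM (SD, n = 3 each; edgeR adjusted p = 0.586 and 0.53). *Epx*, the eosinophil peroxidase gene, had 1 read in 1 of the 6 libraries, in niclosamide 3.

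*Ccl17* and *Ccl22* are made mainly by dendritic cells and macrophages and attract CCR4-bearing helper and regulatory T cells; the genes are neighbours on chromosome 8 (94745684 to 94812038). *Ccl17* had 4.42, 4.14 and 5.97 CPM in niclosamide 1 to 3 and 7.26, 10.7 and 7.13 CPM in vehicle 1 to 3. All niclosamide libraries lay below all vehicle libraries. The log2 fold change was -0.79 ± 0.28 (SE), with an unadjusted edgeR p of 0.0266 and an adjusted p of 0.652. Without vehicle 2, the highest library, it was -0.575. *Ccl22* had 46.7, 33.2 and 29.5 CPM with niclosamide and 41.6, 42.5 and 52.4 CPM with vehicle (-0.32 ± 0.20 SE), with niclosamide 1 inside the vehicle range. *Ccr4*, their receptor, had 4.11, 2.38 and 3.67 CPM with niclosamide and 3.43, 3.87 and 5.63 CPM with vehicle (-0.35 ± 0.34 SE).

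*Ccl1*, a ligand of CCR8 made by activated T cells and myeloid cells, had 67, 70 and 48 reads in niclosamide 1 to 3 and 16, 58 and 34 reads in vehicle 1 to 3. In CPM these were 2.28, 2.16 and 1.49 with niclosamide and 0.583, 1.59 and 1.07 with vehicle, so niclosamide 3 lay just inside the vehicle range. *Ccl1* thus had a log2 fold change of 0.86 ± 0.44 (SE; edgeR adjusted p = 0.786). *Ccr8*, found on regulatory and helper T cells, had 5.54, 2.38 and 1.804 CPM with niclosamide and 2.88, 1.57 and 2.14 CPM with vehicle. Its log2 fold change of 0.56 ± 0.50 (SE) rested on niclosamide 1, without which it was -0.07.

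The homeostatic lymphoid genes *Ccl21a*, *Ccl19* and *Ccr7* all had log2 fold changes within their errors. *Ccl21a* had 123, 115 and 115 CPM with niclosamide and 115, 78.2 and 171 CPM with vehicle, a log2 fold change of -0.04 ± 0.27 (SE). The niclosamide libraries lay close together, with an SD of 4.50 CPM against 46.6 CPM with vehicle, and inside the vehicle range. Markers of lymphatic endothelium, a known source of CCL21, summed to 196 to 252 CPM with niclosamide and 148 to 297 CPM with vehicle. *Ccr7* had 26.1, 28.3 and 10.1 CPM with niclosamide and 23.6, 22.0 and 16.1 CPM with vehicle (0.06 ± 0.40 SE), with niclosamide 3 the lowest of the 6. *Ccl19* had 9, 5 and 12 reads in niclosamide 1 to 3 and 12, 3 and 14 reads in vehicle 1 to 3, and a log2 fold change of -0.18 ± 0.68 (SE).

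Copies limit what can be said of the *Ccl19*, *Ccl21* and *Ccl27* genes. In GENCODE vM21 transcripts of GRCm38, 71.6% of the 50-base windows of *Ccl21a* and 100% of those of *Ccl21b* occur in another gene, as do 45% for *Ccl27a*, 98.1% for *Ccl27b* and 52% for *Ccl19*. By the counter's default the counts leave out reads that align to several places, so the 0 reads of *Ccl21b* and *Ccl27b* do not show that these copies are silent, and the *Ccl21a*, *Ccl27a* and *Ccl19* values are uncertain. No transcript of the name *Ccl21c* was in that table, and none of the windows of *Ccl26* was shared.

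The epithelial ligands held the largest fold change of the family. *Ccl20*, which epithelia make in response to NF-kB signalling and which attracts CCR6-bearing dendritic cells, B cells and T cells, lies on chromosome 1 (83116744 to 83119167). It had 2, 16 and 30 reads in niclosamide 1 to 3 and 104, 55 and 268 reads in vehicle 1 to 3, or 0.0680, 0.494 and 0.933 CPM with niclosamide and 3.79, 1.51 and 8.42 CPM with vehicle. Every niclosamide library lay below every vehicle library, and the values varied widely inside each group. The log2 fold change was -3.18 ± 0.97 (SE), a ratio of 0.110. The edgeR p was 0.0153 before and 0.619 after adjustment, and over the alternatives the adjusted p ran from 0.028 with DESeq2 to 1. It was -3.97 without niclosamide 3. Without vehicle 3, the highest library, the log2 fold change was -2.39 and the unadjusted edgeR p was 0.0509. *Ccr6*, its receptor, had 5.20, 2.97 and 2.86 CPM with niclosamide and 3.61, 1.73 and 3.87 CPM with vehicle (0.26 ± 0.43 SE).

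*Ccl28*, a ligand of CCR10 and CCR3 made by mucosal and glandular epithelium, lies on chromosome 13 (119610551 to 119654359). It had 4.21, 72.2 and 18.6 CPM in niclosamide 1 to 3 and 69.7, 63.7 and 63.7 CPM in vehicle 1 to 3. The niclosamide libraries ranged from far below to above all vehicle libraries (SD of 35.8 CPM with niclosamide and 3.46 CPM with vehicle, n = 3 each). The log2 fold change was -1.05 ± 0.88 (SE; edgeR adjusted p = 0.933), and it was -2.53 without niclosamide 2 and -0.53 without niclosamide 1. Epithelial markers summed to 303, 1820 and 513 CPM in the same niclosamide libraries and to 1581, 889 and 652 CPM in vehicle 1 to 3, so the 2 libraries low in *Ccl28* were also the 2 lowest in epithelial markers. Per 1000 CPM of these markers, a ratio chosen after the values were seen, *Ccl28* had 13.9, 39.7 and 36.3 CPM with niclosamide and 44.1, 71.6 and 97.8 CPM with vehicle. On that scale the groups did not overlap, by a narrow margin (39.7 in niclosamide 2 and 44.1 in vehicle 1). Niclosamide 2, the highest library in *Ccl28* CPM, was thus below all vehicle libraries. Ratios to marker sums formed likewise for *Ccl20*, *Ccl5*, *Ccr2*, *Ccl17*, *Ccr7* and *Ccr1* all overlapped between groups. The share of all genes apart on such a scale was not determined. *Ccl20* per 1000 CPM of the same markers had 0.225, 0.272 and 1.82 CPM with niclosamide and 2.399, 1.699 and 12.9 CPM with vehicle, with a slight overlap.

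*Ccl25*, the CCR9 ligand of thymus and gut, had only 45 to 60 reads per library. Its groups did not overlap in CPM (1.84, 1.73 and 1.87 with niclosamide and 1.641, 1.401 and 1.697 with vehicle), but they did in TPM, and the log2 fold change was 0.20 ± 0.27 (SE). *Ccl27a*, a skin chemokine whose gene model spans 3170 exonic bases, had 6.73, 3.40 and 7.78 CPM with niclosamide and 4.78, 6.29 and 7.26 CPM with vehicle (-0.03 ± 0.36 SE). *Ccr9*, of gut-homing lymphocytes, had 5.17, 3.06 and 4.35 CPM with niclosamide and 4.81, 2.97 and 3.39 CPM with vehicle (0.17 ± 0.33 SE). *Ccr10*, of skin-homing T cells and plasma cells, had 1.16, 1.48 and 1.55 CPM with niclosamide and 1.46, 1.21 and 1.697 CPM with vehicle (-0.06 ± 0.30 SE). Both overlapped between groups.

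The 250 bases before the RefSeq start (GRCm38.p6) are shown for those of the 4 members with an unadjusted edgeR p under 0.05 whose sequence was in the promoter table, because their groups did not overlap in CPM. Capitals mark matches to 3 motifs searched on both strands, which did not overlap each other in these windows: the NF-kB consensus, the STAT-binding GAS motif TTCNNNGAA and the core of the interferon-stimulated response element. The windows were chr1:83116516-83116765 (plus strand) for *Ccl20*, chr8:94810203-94810452 (plus strand) for *Ccl17* and chr9:124101933-124102182 (plus strand) for *Ccr2*. In all 3 genes this RefSeq start lies downstream of the first base of the counted gene model, and the *Ccl17* and *Ccr2* windows lie wholly inside the counted gene span given above.
Ccl20: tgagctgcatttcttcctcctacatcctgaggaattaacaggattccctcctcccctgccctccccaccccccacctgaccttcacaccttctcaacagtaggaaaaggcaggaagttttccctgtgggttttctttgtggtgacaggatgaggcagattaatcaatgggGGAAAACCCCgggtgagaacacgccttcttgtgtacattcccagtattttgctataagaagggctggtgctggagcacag
Ccl17: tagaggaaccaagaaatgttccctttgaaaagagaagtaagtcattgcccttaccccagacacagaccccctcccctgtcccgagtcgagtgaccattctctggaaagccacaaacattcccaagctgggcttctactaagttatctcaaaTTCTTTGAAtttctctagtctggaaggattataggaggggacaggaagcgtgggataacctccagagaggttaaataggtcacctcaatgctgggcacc
Ccr2: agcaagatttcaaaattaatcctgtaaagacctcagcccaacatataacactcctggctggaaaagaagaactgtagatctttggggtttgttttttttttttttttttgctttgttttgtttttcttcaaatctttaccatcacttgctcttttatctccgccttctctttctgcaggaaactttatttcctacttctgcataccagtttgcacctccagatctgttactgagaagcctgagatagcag
*Ccl20* held an NF-kB match beginning 80 bases before the start, *Ccl17* a GAS match beginning 99 bases before it, and the *Ccr2* window no match. Of the 24 members in the table, 6 had an NF-kB match in any of their windows (*Ccl1*, *Ccl9*, *Ccl20*, *Ccr3*, *Ccr6* and *Ccrl2*), 2 a GAS match (*Ccl17* and *Ccr6*) and 1 the interferon core (*Ccl19*). By window this was 6, 2 and 1 of 33, against 5.93%, 7.02% and 2.98% of all 32851 windows. A match describes the letters only.

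*Ccrl2* encodes a receptor that does not signal and presents the protein chemerin to its receptor CMKLR1. It had 27.2, 24.8 and 13.5 CPM with niclosamide and 31.4, 15.3 and 13.8 CPM with vehicle (log2 fold change 0.12 ± 0.40 SE). The chemerin gene *Rarres2* had 78.0, 98.2 and 141 CPM with niclosamide and 127, 73.9 and 112 CPM with vehicle, and *Cmklr1* had 69.6, 49.6 and 32.3 CPM with niclosamide and 53.0, 38.5 and 32.6 CPM with vehicle. All 3 overlapped between groups.

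In 20 ligand-receptor pairs both genes were tested, and in 13 the log2 fold changes had the same sign, 6 both above 0 and 7 both below. Ligands and receptors recur in these pairs, so the pairs are not independent. Of the 30 tested members 15 were above 0 and 15 below, and the share of same-sign pairs among unrelated genes was not determined. In the same-sign pairs, *Ccr1*, *Ccl3*, *Ccr8*, *Ccr9*, *Ccr10* and *Ccl27a* also turned sign with 1 library left out. *Ccr1*, at -0.28, shared its sign with *Ccl3* (-0.32) and not with *Ccl5* (1.36), *Ccl6* (0.31) or *Ccl9* (0.15). The 3 ligands paired with CCR2, which leave out *Ccl8*, had the sign of *Ccr2* (0.46), at 0.43, 0.23 and 0.12, with the turns of *Ccl7* and *Ccl12* given above. CCR4 and its ligands *Ccl17* and *Ccl22* were all below 0, as were CCR3 and the eotaxins, but *Ccl5* (1.36), also paired with CCR3 (-0.81), stood on the other side of 0, and CCR6 (0.26) and *Ccl20* (-3.18) stood on opposite sides.

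**Figure D4:**
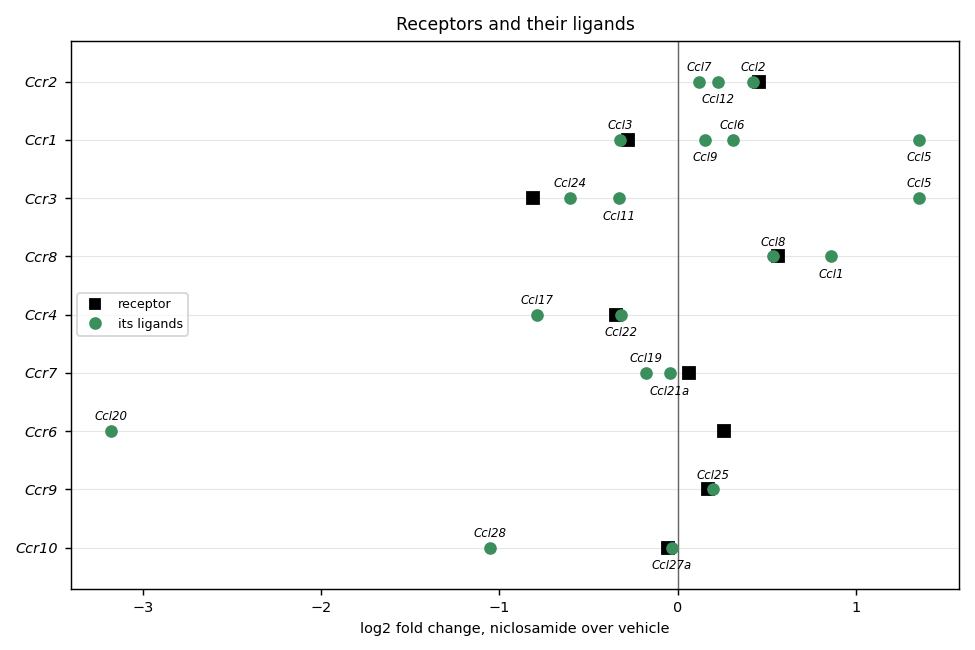
Log2 fold change of niclosamide over vehicle for each receptor (square) and its tested ligands (circles). *Ccr2* at 0.46 lies near *Ccl2* at 0.43, *Ccr1* at -0.28 lies far from *Ccl5* at 1.36, and *Ccr6* at 0.26 lies far from *Ccl20* at -3.18.

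Of 21 other genes of the pathway (atypical receptors, chemerin and its receptors, the chemokine-cleaving protease *Dpp4* and receptor signalling genes), 20 were tested and 0 had an edgeR adjusted p under 0.05. The median of their log2 fold changes was 0.09, and 15 lay above 0 and 5 under it. An unadjusted edgeR p under 0.05 was met by 1 of the 20 (5%), compared with 6.92% of all genes tested. This gene was *Rgs1*, an inhibitor of chemokine receptor signalling in lymphocytes. It had 37.3, 46.2 and 34.8 CPM with niclosamide and 23.8, 20.3 and 31.0 CPM with vehicle (0.66 ± 0.20 SE, adjusted p = 0.619). The scavenging receptor gene *Ackr2*, whose protein removes inflammatory CC chemokines, had a log2 fold change of 0.49 ± 0.29, *Ackr4*, which removes CCL19 and CCL21, 0.41 ± 0.38, and *Ackr1*, the chemokine-binding receptor of venules, -0.22 ± 0.31 (SE).

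T and NK cell markers and *Ccl5* were both higher on average with niclosamide. All 8 T and NK cell markers were above 0. So were all tested markers of macrophages and monocytes (7), dendritic cells (5), B and plasma cells (4), skeletal muscle (6) and adipocytes (4). The T and NK cell markers summed to 457, 473 and 329 CPM in niclosamide 1 to 3 and 236, 229 and 210 CPM in vehicle 1 to 3. Within each group this was the library order of *Ccl5*. Across groups, vehicle 1 was above niclosamide 3 in *Ccl5* (130 and 85.9 CPM) and below it in these markers. Per 1000 CPM of these markers, a ratio again chosen after the values were seen, *Ccl5* had 581, 572 and 261 CPM with niclosamide and 549, 283 and 230 CPM with vehicle, and the groups overlapped. *Ccr2* per 1000 CPM of macrophage and monocyte markers had 159, 177 and 314 CPM with niclosamide and 130, 246 and 231 CPM with vehicle, also overlapping. *Ly6c2*, the inflammatory monocyte marker, had 122, 89.8 and 51.7 CPM with niclosamide and 47.0, 32.4 and 32.6 CPM with vehicle (1.24 ± 0.33 SE, edgeR adjusted p = 0.599). Dendritic cell markers summed to 193 to 441 CPM with niclosamide and 170 to 254 CPM with vehicle, and per 1000 CPM of them *Ccl17* had 10.02, 15.9 and 30.9 CPM with niclosamide and 28.6, 63.2 and 35.9 CPM with vehicle. On that scale niclosamide 3 lay above vehicle 1, so the groups overlapped. Per 1000 CPM of neutrophil markers, which were lower with niclosamide, *Ccr1* had 347, 282 and 135 CPM with niclosamide and 156, 174 and 94.3 CPM with vehicle. Niclosamide 1 and 2 then lay above all vehicle libraries and niclosamide 3 inside their range, so the groups overlapped. In plain CPM the mean of *Ccr1* was lower with niclosamide. The divisor itself differed, with neutrophil marker sums of 198 to 303 CPM with niclosamide and 328 to 755 CPM with vehicle. *Ccr1* is also a gene of monocytes, and its ratio to monocyte markers was not formed.

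**Figure D5:**
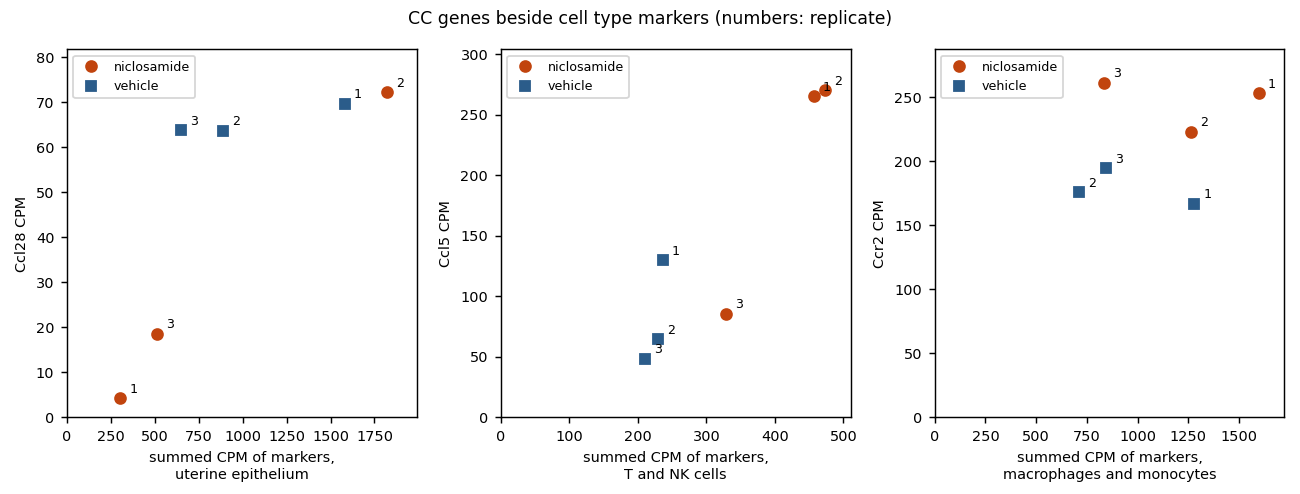
CPM of *Ccl28* against the summed CPM of uterine epithelium markers, of *Ccl5* against those of T and NK cells, and of *Ccr2* against those of macrophages and monocytes, 1 point per library with its replicate number. Niclosamide 1 and 3 are low in both *Ccl28* and epithelial markers, and niclosamide 1 and 2 are high in *Ccl5* and T and NK cell markers.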

How the data were processed

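RNA-seq read counts of 6 libraries of lesion tissue were analysed. The authors' deposited values are whole-number counts per gene symbol, not normalized. Aligned reads (STAR) had been assigned to exons of the GRCm38.p3 annotation by featureCounts (version 1.4.6-p4, reverse-stranded), per the file headers. The headers set no option for reads with several alignments or several genes, so the counter's default left these out. The submitters' processing notes list edgeR 3.12.0, STAR 2.4.2a, the read trimmer Trimmomatic 0.33 and the converter bcl2fastq 1.8.4.

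All genes were fitted together with edgeR 4.0.16 in R 4.3.3: filterByExpr (minimum count 10, minimum total 15), TMM scaling, robust quasi-likelihood test with the group as its only term, and Benjamini-Hochberg adjustment over all 17364 genes at 0.05. SE was derived as the size of the log2 fold change divided by the root of its F statistic. CPM use TMM-scaled library totals; TPM use the deposited exon lengths without TMM. The procedure was run on simulated counts with planted fold changes and the same spread for all genes, which does not show its power in these data. Alternatives were RLE and upper-quartile scaling, DESeq2 1.42.0, limma-voom (limma 3.58.1), no filter, a stricter filter, the replicate number as a block, an adjusted p under 0.10, and each library left out.

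The members and lists were chosen with earlier results of these data known, and 1 of the 35 symbols that match the naming rule is not reported here. Genes were given in every library if their unadjusted p was under 0.05, their groups did not overlap, they were among the 4 highest ligands or receptors in TPM, or they belonged to a ligand-receptor pair. A p-value here sets the group difference against the spread between libraries, and 1 vehicle library is a pool of 4 mice beside single mice.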

Additional observations from a re-analysis of the deposited data

How the results depend on the processing

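The number of members called was 0 in the alternatives run, except DESeq2 with 1 (*Ccl20*); over all genes it was 178 with DESeq2, 1 without a filter on low counts and 0 in each other setting. Members with an unadjusted p under 0.05 numbered 4, and 2 to 5 with 1 library left out, the 2 being without vehicle 3 and the 5 without vehicle 1, where 3.86% and 5.38% of all genes had such a p. Over the left-out libraries that share ran from 3.86% to 10.8% (without niclosamide 3). With the replicate number as a block, 0 members and 0 genes were called and 3 members had an unadjusted p under 0.05 (6.57% of all genes). Same-numbered libraries correlated at -0.0846, -0.0875 and 0.266 in their deviations from the group means, and differently numbered ones at -0.357 to 0.36. Deviations from a mean of 3 libraries sum to 0, so these values depend on each other. They cannot decide whether the number pairs the libraries. Of the 30 tested members, 14 kept their sign in all 13 alternatives, among them the 4 with an unadjusted p under 0.05. Outside the left-out libraries, 4 members turned: with limma-voom *Ccl19* (0.064), *Ccl21a* (0.025), *Ccl4* (0.076) and *Ccr7* (-0.062), and with the replicate block *Ccl21a* (0.030), *Ccl4* (0.014) and *Ccr7* (-0.054). With 1 library left out, 16 members turned sign, with log2 fold changes of -0.26 to 0.23 for *Ccl27a*, -0.66 to 0.13 for *Ccl19*, -0.28 to 0.29 for *Ccl21a*, -0.091 to 0.58 for *Ccrl2*, -0.071 to 0.86 for *Ccr8*, -0.012 to 0.40 for *Ccr9*, -0.54 to 0.009 for *Ccr1*, -0.27 to 0.52 for *Ccl7*, -0.12 to 0.40 for *Ccl12*, -0.25 to 0.73 for *Ccl9*, -0.034 to 0.99 for *Ccl6*, -0.65 to 0.54 for *Ccl3*, -0.46 to 0.73 for *Ccl4*, -0.21 to 0.41 for *Ccr7*, -0.18 to 0.075 for *Ccr10* and -0.077 to 0.47 for *Ccr6*. The cause was not tested. Low counts limit *Ccl19* (3 to 14 reads) and *Ccl20* with niclosamide (2 to 30 reads), and 3 libraries a group, with 1 a pool, limit every comparison.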

Other observations

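The order of the libraries differed between genes of the family. Of the 30 tested members, niclosamide 2 was the highest library in 7 and vehicle 3 in 8, and vehicle 2 was the lowest in 10. Vehicle 1, the pool of 4 mice, was the highest of the 6 libraries in 6 members, namely *Ccl3*, *Ccl4*, *Ccl9*, *Ccl11*, *Ccr1* and *Ccrl2*. The receptor genes described summed to 341 to 398 CPM with niclosamide and 282 to 347 CPM with vehicle, while the ligands summed to 1049 to 1937 CPM and 797 to 1925 CPM. These sums are given as values, with no test.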
